A study of Mus musculus with 2 samples.

Results

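The growth hormone and IGF axis was examined through 10 genes, Ghr, Jak2, Stat5a, Stat5b, Socs2, Cish, Igf1, Igfals, Igfbp1 and Igfbp2. They were taken by gene symbol, and all 10 were among the 43280 symbols of the read count tables. The tables come from 1 library of mature hepatocytes (MHs) and 1 library of small hepatocytes (SHs), both from livers of C57BL6 mice labelled as 20 weeks old, for which no genetic change or treatment is named. Per the labels, both cell preparations were taken from the same mice after collagenase perfusion, and the methods name 3 healthy adult mice without saying whether they were pooled. MHs are the hepatocytes that sediment at low speed, freed of dead cells on Percoll and not sorted, and SHs are a small-sized fraction that the labels call intrinsic hepatocyte progenitors, sorted as CD31-, CD45-, EpCAM- and ICAM-1+ cells. The comparison asks how SHs and MHs differ in gene expression.

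Growth hormone from the pituitary acts on hepatocytes through its receptor GHR, which activates the kinase JAK2. JAK2 phosphorylates the transcription factors STAT5A and STAT5B, and these induce the genes of insulin-like growth factor IGF1 and of ALS, the protein that stabilizes IGF in blood. STAT5 also induces SOCS2 and CIS, which dampen the receptor signal, whereas the IGF-binding protein IGFBP1 is held down by insulin. The liver is the main source of circulating IGF1 and ALS.

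Promoter sequences of the axis were read from RefSeq (GRCm38.p6, the build of mm10) to show where the DNA of these genes holds the STAT5 core motif. The motifs searched were TTCNNNGAA and a wider spacing with 4 free bases between TTC and GAA, which both read the same on either strand. RefSeq windows of 300 bases, 250 before and 50 from the transcription start on, were found for 9 of the 10 genes, as 15 windows. Socs2 had no window. The wider spacing was present in 0 of these windows and in 6.95% of all 32851 promoter windows. TTCNNNGAA was present in 3 of them, those of 2 genes, Cish and Igfals, and in 8.30% of all windows. In Cish it occurred in tandem, starting at positions 1 and 12 counted from the start. Igfals had 3 windows. In the most upstream of them the motif began at position -236, and in the next at -58, called the downstream start below. The window of the remaining Igfals start, further downstream than both, held none of the strings searched. The Igfbp1 window held CAAAACAA, a core of the insulin response element, at position -108. This string, on either strand, was in 2.51% of all windows. The windows with a match are given here, with the matches in capitals. The windows of the other genes, Stat5b and Igf1 included, held none of these strings. They show the 250 bases before the start and, for Cish, 30 more. A match is a string of letters and not evidence of binding.
Cish, chr9:107296409-107296688, plus strand: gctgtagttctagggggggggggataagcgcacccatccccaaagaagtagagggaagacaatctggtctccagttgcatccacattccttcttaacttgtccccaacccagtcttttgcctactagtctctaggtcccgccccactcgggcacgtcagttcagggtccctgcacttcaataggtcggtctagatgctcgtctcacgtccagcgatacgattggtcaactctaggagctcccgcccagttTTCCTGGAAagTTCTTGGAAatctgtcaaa
Igfals, upstream start, chr17:24877594-24877843, plus strand: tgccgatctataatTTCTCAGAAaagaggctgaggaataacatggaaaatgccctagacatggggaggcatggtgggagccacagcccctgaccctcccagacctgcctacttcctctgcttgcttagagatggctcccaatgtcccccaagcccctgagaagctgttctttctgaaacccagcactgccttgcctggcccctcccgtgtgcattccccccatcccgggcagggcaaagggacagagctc
Igfals, downstream start, chr17:24877981-24878230, plus strand: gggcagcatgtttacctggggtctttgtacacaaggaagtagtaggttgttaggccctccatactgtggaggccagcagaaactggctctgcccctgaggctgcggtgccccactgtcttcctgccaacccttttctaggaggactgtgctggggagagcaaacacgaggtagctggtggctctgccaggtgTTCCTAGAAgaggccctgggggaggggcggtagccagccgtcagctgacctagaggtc
Igfbp1, chr11:7197537-7197786, plus strand: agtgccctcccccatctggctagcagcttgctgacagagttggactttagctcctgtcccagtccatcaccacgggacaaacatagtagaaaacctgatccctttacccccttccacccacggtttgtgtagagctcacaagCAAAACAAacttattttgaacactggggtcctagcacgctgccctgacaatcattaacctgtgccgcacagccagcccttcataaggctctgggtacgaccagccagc

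Counted reads totalled 16979136 for MHs and 42356444 for SHs, and levels are given as reads per 1000000 counted reads (RPM). The ratio of SHs over MHs is given on the log2 scale after 0.5 reads were added to each count, with a 95% Clopper-Pearson interval for the split of the reads. With 1 library per condition there was no test and no p-value, and intervals cover counting error only, not the spread between mice or preparations. General hepatocyte markers were high in both libraries. The 9 of 10 such markers found in the files summed to 86440 RPM in MHs and 89451 RPM in SHs, with 4 intervals above and 4 under 0, and Alb and Apob were the most read of them. Markers of endothelial, immune and stellate cells summed to 147.7 RPM in MHs and 8.59 RPM in SHs, and of the 28 markers measured by 10 reads or more, 27 had a level in SHs that was 2-fold or more under that in MHs. In such bulk samples, fewer cells of a type and less RNA per cell cannot be told apart.

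Taken as a whole, the axis was expressed at nearly the same level in SHs and MHs. The 10 genes summed to 1484 RPM in MHs and 1476 RPM in SHs. Their median log2 ratio was 0.03, beside 0.02 for all 15521 genes with at least 10 reads. The interval lay wholly above 0 for Stat5b, Cish, Igf1, Igfals and Igfbp1, which makes 5 genes, and wholly under 0 for Ghr, Socs2 and Igfbp2, which makes 3. Among all genes with at least 10 reads these shares were 16.8% above and 15.5% under 0. Deeply read genes have narrower intervals, and among the genes with at least 1000 reads the shares were 31.2% and 21.1%. Of the 8 axis genes with that many reads, 5 lay above and 2 under 0. No axis gene, 0 of 10, was 2-fold lower or higher in SHs, against 4.46% and 2.00% of all genes with at least 10 reads. All axis genes had over 200 reads, and among genes with at least that many the shares were 0.812% and 0.354%. At 1.5-fold, Socs2 was lower, which was the case for 6.20% of all genes with at least 10 reads and 2.10% of those with at least 200 reads. At this fold, 0 of 10 axis genes were higher, against 3.50% and 1.86% of these same sets.

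**Figure D1:**
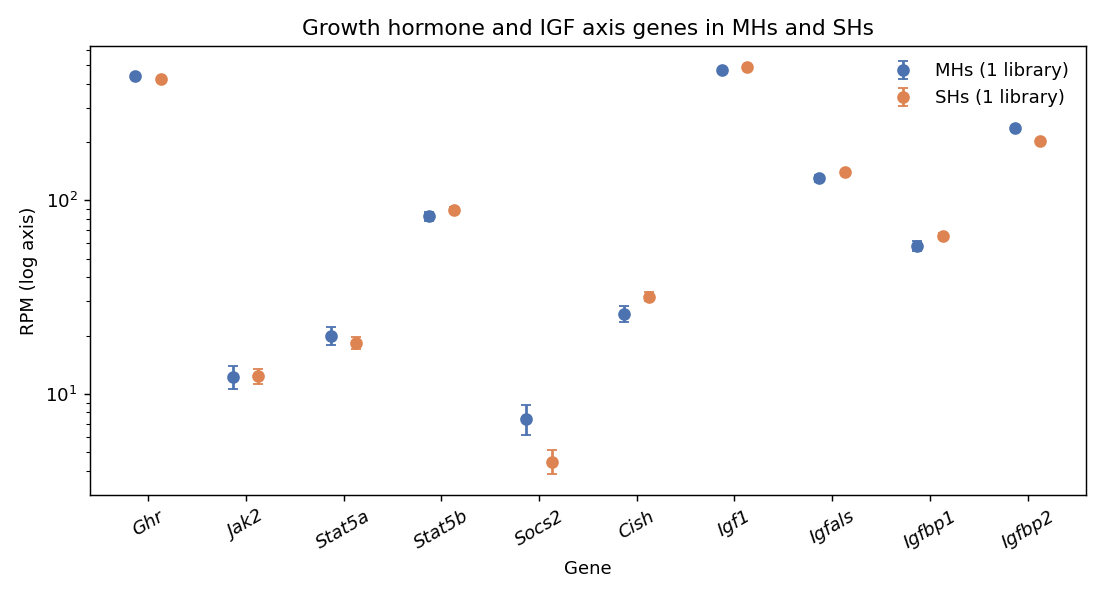
Level of each axis gene in the library of MHs (blue) and of SHs (orange), in RPM on a log axis, with exact 95% Poisson intervals of the counts. The pairs of points lie close together for every gene but Socs2, which had 7.36 RPM in MHs and 4.44 RPM in SHs.

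The receptor gene Ghr (chromosome 15, 3317760 to 3583492 of mm10) was the second most read gene of the axis. It had 7482 reads in MHs against 17942 in SHs, or 440.7 RPM and 423.6 RPM. The log2 ratio was -0.06 (-0.10 to -0.02). This small difference rests on the scaling, since the interval included 0 when totals were taken over protein-coding genes or without the 10 genes with the most reads.

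Jak2 (chromosome 19, 29251828 to 29313080), the kinase bound to the receptor, was expressed at a low level in both libraries. It had 206 reads in MHs against 520 in SHs, which were 12.1 RPM and 12.3 RPM. The log2 ratio of 0.01 had an interval of -0.22 to 0.26, so a difference of Jak2 was not detectable at this depth.

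The STAT5 genes lie next to each other on chromosome 11. Stat5b (100780731 to 100850724), which encodes the main growth hormone effector of the liver, had 1404 reads in MHs against 3772 in SHs. The levels were 82.7 RPM and 89.1 RPM, a log2 ratio of 0.11 (0.02 to 0.20). Stat5a (100859351 to 100885169) had 337 reads in MHs against 774 in SHs, or 19.8 RPM and 18.3 RPM, and the interval of its log2 ratio of -0.12, -0.31 to 0.07, included 0.

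Stat5b took most of the STAT5 reads in both cell types, a share that does not depend on library scaling. It was 80.6% of the 1741 STAT5 reads in MHs (95% interval 78.7 to 82.5) and 83.0% of 4546 in SHs (81.8 to 84.1). The log2 ratio of Stat5b exceeded that of Stat5a by 0.23, with a Wald interval of 0.02 to 0.43. The paralogs share sequence, and 8.52% of the 50-base words of Stat5a transcripts and 11.0% of those of Stat5b occurred in another gene, so reads there may have been divided between them. Stat5a also overlaps Stat3 on the opposite strand, and whether reads were counted by strand is not given in the sources used here. Likewise Cish overlaps Gm17040, with 9 and 33 reads, and Igf1 overlaps the antisense gene Igf1os, with 4 and 6.

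The feedback inhibitors Socs2 and Cish went in opposite directions. Socs2 (chromosome 10, 95385362 to 95417180), which encodes the suppressor of cytokine signalling that limits growth hormone action on body size, had 313 reads over both libraries, 188 of them in the deeper SH library. Its level was 7.36 RPM in MHs and 4.44 RPM in SHs, a change of -39.7%. The log2 ratio of -0.73 (-1.06 to -0.39) was lower than that of all but 1.27% of the 9608 genes with at least 200 reads. It was the only gene of the axis outside the range from the 5th to the 95th percentile of those genes, -0.40 to 0.42.

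Cish (chromosome 9, 107296026 to 107302784), which encodes CIS and carries the tandem motif printed above, had 439 reads in MHs against 1348 in SHs. Its level was 25.9 RPM in MHs and 31.8 RPM in SHs, 23.1% higher. The log2 ratio was 0.30 (0.14 to 0.46), the highest of the axis, and 89.3% of genes with at least 200 reads had a lower one. Cish exceeded Socs2 by 1.03 in log2 ratio (Wald interval 0.67 to 1.39), a difference free of library scaling. Accordingly, Socs2 made up 22.2% of the reads of both genes in MHs (18.8 to 25.8) and 12.2% in SHs (10.6 to 13.98). Of the 50-base words of their transcripts, 4.58% for Socs2 and 9.35% for Cish occurred in other genes.

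**Figure D2:**
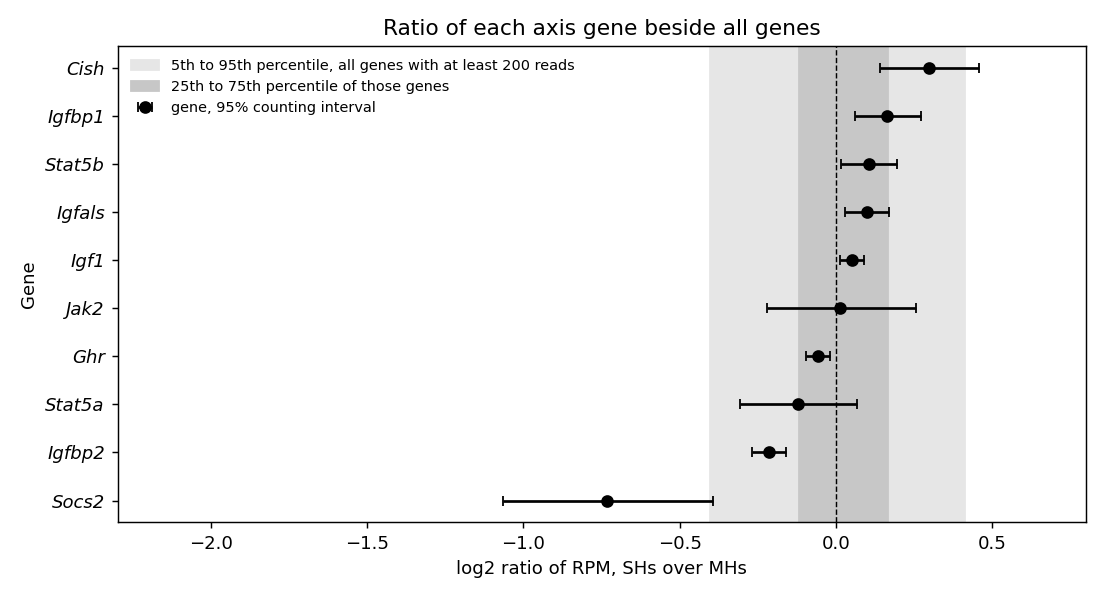
The log2 ratio of RPM, SHs over MHs, for each axis gene with its 95% counting interval, over grey bands that mark the 5th to 95th and 25th to 75th percentiles of the 9608 genes with at least 200 reads. Socs2 lies left of the wider band at -0.73, and the other genes lie between -0.21 and 0.30.

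Among the secreted products, Igf1 and Igfals differed little between SHs and MHs. Igf1 (chromosome 10, 87858265 to 87937042), the growth factor itself, was the most read gene of the axis, with 7987 reads in MHs against 20651 in SHs. Its 470.4 RPM and 487.6 RPM gave a log2 ratio of 0.05 (0.01 to 0.09). Igfals (chromosome 17, 24865997 to 24882010), the gene of ALS, had 2218 reads in MHs against 5932 in SHs. It reached 130.6 RPM and 140.1 RPM, a log2 ratio of 0.10 (0.03 to 0.17). The ratios of Igf1 and Igfals differed by -0.05, with a Wald interval of -0.13 to 0.03 that included 0.

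The IGF-binding protein genes Igfbp1 and Igfbp2 differed in direction. Igfbp1 (chromosome 11, 7197782 to 7202546), whose product binds IGF1 for short periods and follows the insulin state, had 989 reads in MHs against 2768 in SHs. Its level was 58.2 RPM in MHs and 65.4 RPM in SHs, 12.2% higher, with a log2 ratio of 0.17 (0.06 to 0.27). Igfbp2 (chromosome 1, 72824503 to 72852474), another IGF carrier made by hepatocytes, had 4014 reads in MHs against 8632 in SHs. It went from 236.4 RPM in MHs to 203.8 RPM in SHs, and its log2 ratio was -0.21 (-0.27 to -0.16). The ratio of Igfbp1 exceeded that of Igfbp2 by 0.38 (Wald interval 0.26 to 0.50). Igfbp1 thus held 19.8% of the reads of both genes in MHs (18.7 to 20.9) and 24.3% in SHs (23.5 to 25.1).

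The axis genes were ranked by level per length, as RPM per 1000 exon bases (RPKM). The read counts and read shares given above take no account of gene length. Igfbp2 was highest in both libraries, with 128.0 RPKM in MHs and 110.3 RPKM in SHs. Ghr and Igf1 followed, with 48.7 and 47.5 RPKM in MHs, whose Poisson intervals overlapped, and with 46.8 and 49.2 RPKM in SHs, whose intervals did not. Igfals and Igfbp1 came next and overlapped each other in both libraries. They had 41.2 and 38.2 RPKM in MHs, and 44.2 and 42.9 RPKM in SHs. Stat5b had 14.9 RPKM in MHs and 16.1 RPKM in SHs, followed by Cish with 4.03 RPKM and 4.96 RPKM. Stat5a and Jak2 overlapped each other in both libraries, between 2.41 and 2.78 RPKM, and Socs2 was lowest with 0.772 and 0.466 RPKM. The order depended on which exons were counted. By the longest coding transcript, Ghr was above Igf1 in both libraries, with 105.5 against 66.7 RPKM in MHs, and Socs2 was above Jak2 in MHs, with 3.31 against 2.41 RPKM.

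**Figure D3:**
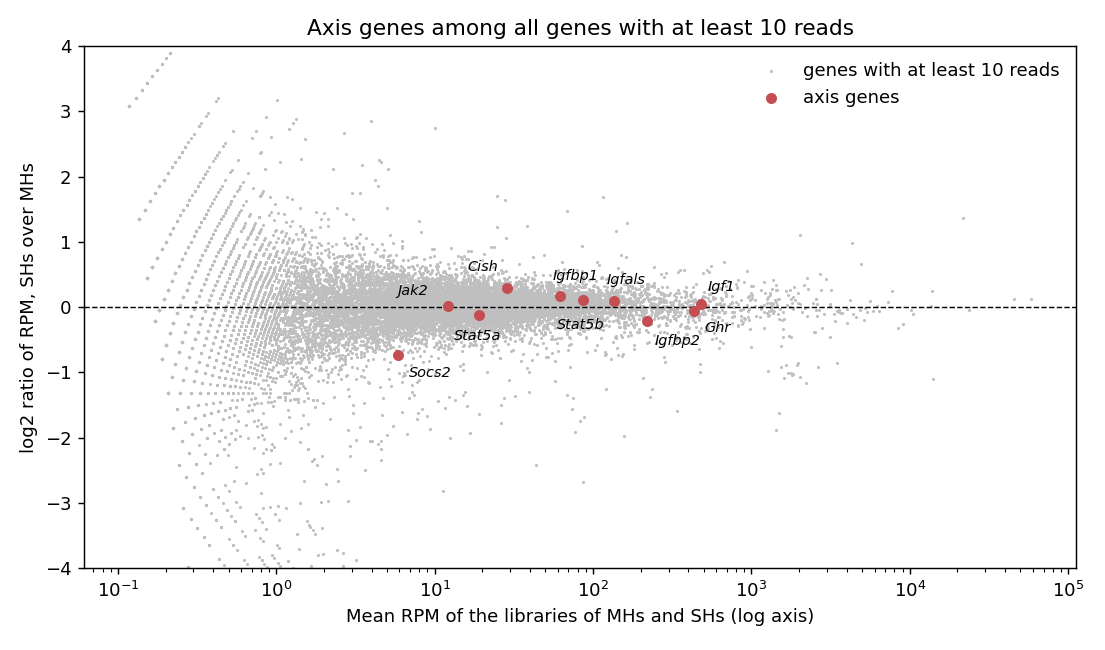
Each grey point is a gene with at least 10 reads, placed by its mean RPM in both libraries (log axis) and its log2 ratio of SHs over MHs, and axis genes are red and named. The axis genes lie within the main cloud around 0, with Socs2 the lowest of them at -0.73, and 171 genes lie beyond the range of the y axis.

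The wider pathway was followed with 76 further genes in 5 lists, of which 62 had at least 10 reads. The interval lay above 0 for 18 of these and under 0 for 12, and the median log2 ratio was 0.05. Among all genes the interval lay above 0 for 16.8% and under 0 for 15.5% with at least 10 reads, and for 31.2% and 21.1% with at least 1000 reads, and these shares are the background for each list below. With the other scalings it lay above 0 for 22 and under 0 for 8 or 9. Ligand genes were close to silent in both libraries. Gh had 1 read in MHs and 0 in SHs, and Igf2, the fetal growth factor, had 0 and 2. Igf1r, the IGF1 receptor gene, had only 5 reads in MHs against 18 in SHs, which left a wide interval of -0.95 to 2.31. Insr, the insulin receptor gene, stood at 123.9 RPM in MHs and 123.1 RPM in SHs, and the log2 ratio was -0.01 (-0.08 to 0.06). Igf2r, which clears IGF2, had 60.3 RPM and 61.3 RPM. Prlr, the receptor of prolactin and a relative of Ghr, had a lower level in the SH library, 31.2 RPM in MHs, 25.4 RPM in SHs and a log2 ratio of -0.30 (-0.45 to -0.14). It was the only one of the 5 ligand and receptor genes with at least 10 reads whose interval left out 0.

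Of 25 kinase, STAT and adaptor genes with at least 10 reads, 9 were higher in SHs by their interval and 3 lower, with a median of 0.12. These counts rest on small ratios, and with each of the other scalings they were 12 and 1. Among all genes with at least 1000 reads, 31.2% were higher and 21.1% lower. Irs2, an adaptor of the insulin and IGF1 receptors, had the highest ratio among those with at least 100 reads. It had 801 reads in MHs against 2870 in SHs, 47.2 RPM and 67.8 RPM, a log2 ratio of 0.52 (0.41 to 0.64). Irs1, its paralog, was at -0.12 with an interval that ended just under 0 and included 0 with the other scalings. Stat3, the effector of IL-6 family cytokines, had 71.3 RPM in MHs and 89.8 RPM in SHs, and the log2 ratio was 0.33 (0.24 to 0.43). Jak1 was at -0.03 (-0.13 to 0.07), and Jak3, with 84 and 149 reads, was at -0.50 (-0.89 to -0.09). Gab1 was at 0.39 (0.10 to 0.70).

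The 16 measured genes of a list of signal regulators, most of them inhibitors, had a median of 0.07, with 4 intervals above and 3 under 0. Socs3, which restrains signals of IL-6 family and other cytokines, differed most. It had 617 reads in MHs against 4292 in SHs, or 36.3 RPM and 101.3 RPM, a log2 ratio of 1.48 (1.36 to 1.60). Its ratio lay 2.21 above that of Socs2 (Wald interval 1.86 to 2.56). Socs4 had a log2 ratio of -0.44 (-0.64 to -0.23) and Socs7 one of 0.30 (0.06 to 0.55), whereas the intervals of Socs5 and Socs6 included 0. Within the 8 genes Cish and Socs1 to Socs7, the share of reads on Socs3 was 33.1% in MHs (30.9 to 35.3) and 57.2% in SHs (56.1 to 58.4). Grb10, an adaptor that holds down the insulin receptor, was at -0.39 (-0.73 to -0.03), and the phosphatase gene Ptpn2 at 0.34 (0.02 to 0.68). The interval of Grb10 included 0 when totals left out the 10 genes with the most reads. Ptpn11 and Sh2b1, the other genes of this list with the most reads, do not act only as inhibitors. Their intervals included 0, although that of Ptpn11 lay above 0 with the other scalings.

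**Figure D4:**
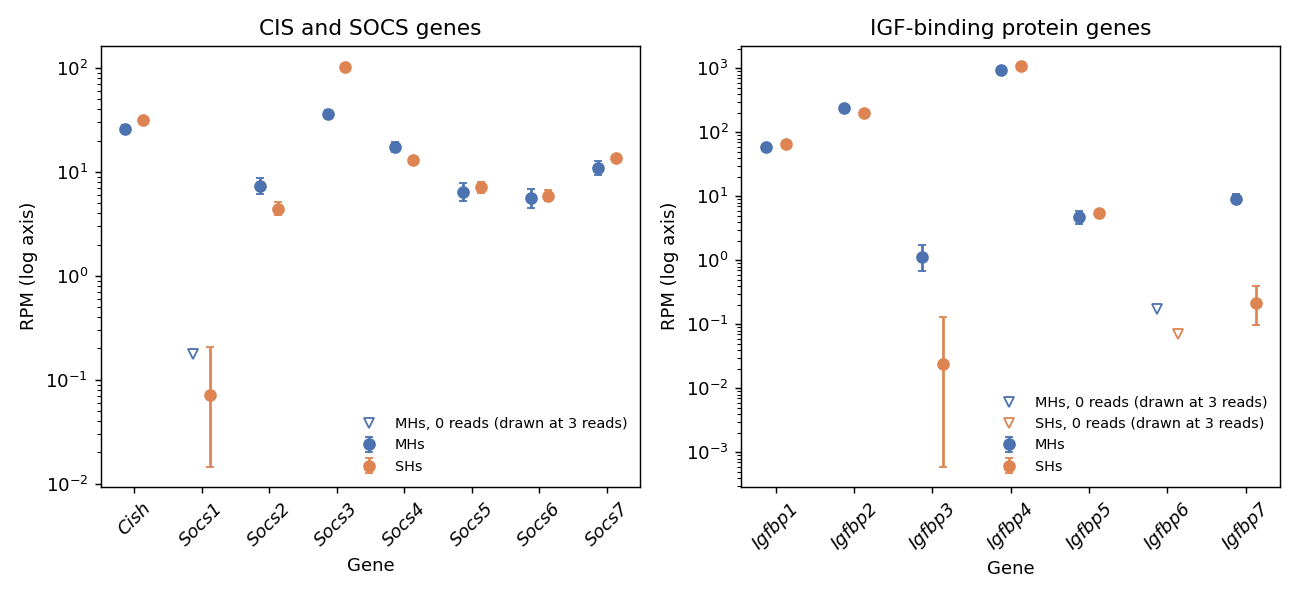
RPM on a log axis, in MHs (blue) and SHs (orange), of the genes of CIS and SOCS proteins (left) and of IGF-binding proteins (right), with exact 95% Poisson intervals, and with open triangles at the value of 3 reads for genes without a read. Socs3 is higher in SHs, 101.3 against 36.3 RPM, Socs2 is lower, and Igfbp3 and Igfbp7 are far lower in SHs.

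Of the 6 measured genes among the other IGF-binding proteins and the factors that process them, 2 were lower in SHs by their interval and 1 higher. The median was -0.30, but its sign rested on the read minimum. It was 0.20 over genes with at least 200 reads and 0.08 over genes with at least 1 read. Igfbp4 had more reads than any of the 10 axis genes. It had 949.2 RPM in MHs and 1080 RPM in SHs, and the log2 ratio was 0.19 (0.16 to 0.21). Per length it was also the most abundant, with 55.1% of the RPKM of Igfbp1 to Igfbp7 in MHs and 61.3% in SHs, and Igfbp2 came second with 32.8% and 27.7%. Igfbp5 had 4.71 RPM and 5.45 RPM, and the interval of its ratio included 0. Igfbp7 was far lower in SHs, with 156 reads in MHs against 9 in SHs and a log2 ratio of -5.36 (-6.59 to -4.47). Igfbp3, which carries most IGF1 in blood together with ALS, had 19 reads in MHs against 1 in SHs, and the log2 ratio was -5.02 (-10.94 to -2.91). Igfbp6 had 0 reads in both.

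Igfbp3 and Igfbp7 are known to be expressed by cells other than hepatocytes, and the markers of such cells were lower in SHs too. The 10 endothelial markers summed to 104.0 RPM in MHs and 5.08 RPM in SHs, all 10 at least 2-fold lower, and Lyve1 had 0 reads in SHs. Ptprb and Stab2, the most read of them, had 422 and 338 reads in MHs and 30 and 119 in SHs. The immune markers summed to 22.7 RPM and 1.16 RPM, with Clec4f at 92 reads in MHs against 6 in SHs, Cd5l at 79 and 4, and Cd3e at 0 in both. The stellate markers summed to 20.97 RPM and 2.36 RPM, with Reln at 130 and 64 reads and Dcn at 117 and 2. Cholangiocyte markers summed to 21.4 RPM and 24.6 RPM, with Spp1 at 136 and 271 reads, and Cftr and Cldn4 at 0 reads in SHs. The part of these cells in the ratios of Igfbp3 and Igfbp7, and of the axis genes, was not tested.

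Of 10 measured transcription factor genes tied to growth hormone action in liver, 4 were higher in SHs by their interval and 3 lower, with a median of -0.01. Hnf4a, the central regulator of hepatocyte identity, had 633.3 RPM in MHs and 649.0 RPM in SHs. Cebpa was higher, with a log2 ratio of 0.21 (0.17 to 0.24), and its relative Cebpb lower, with -0.32 (-0.40 to -0.24). Onecut2 had -0.41 (-0.55 to -0.27), whereas the glucocorticoid receptor gene Nr3c1 had 0.09 (0.01 to 0.18) and Rora 0.12 (0.02 to 0.22). Bcl6, a repressor that growth hormone pulses regulate through STAT5, was at 50.2 RPM in MHs and 50.3 RPM in SHs.

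In mice, growth hormone is secreted in pulses in males and more steadily in females, and liver genes with sex-biased expression follow this pattern. The labels do not give the sex of the mice. Xist had 2 reads in MHs against 0 in SHs, whereas the Y-linked genes Ddx3y, Uty, Kdm5d and Eif2s3y had between 11.6 and 38.8 RPM in either library. Of 24 genes listed as higher in males, 16 were lower in SHs by their interval and 4 higher, with a median log2 ratio of -0.35. Lower calls made up 15.5% of all genes with at least 10 reads and 21.1% of those with at least 1000. Mup7, a major urinary protein gene, went from 4489 RPM in MHs to 2483 RPM in SHs, and the log2 ratio was -0.85 (-0.87 to -0.84). Moxd1 and Susd4 had the lowest ratios, -1.57 (-1.66 to -1.47) and -1.44 (-1.70 to -1.18). Gstp1, a glutathione transferase, was at 0.36 (0.33 to 0.39), Mup20 at 0.13 (0.11 to 0.15) and Serpina1e at 0.09 (0.08 to 0.10). Major urinary protein genes are close copies of each other, so reads of single members are uncertain.

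Genes listed as higher in females were few in reads. The 26 genes summed to 94.9 RPM in MHs and 73.9 RPM in SHs, and 17 had at least 10 reads. Of these, 8 were lower in SHs by their interval and 1 higher, beside 15.5% and 16.8% of all genes with at least 10 reads. The median was -0.62, and -0.38 over the genes with at least 200 reads. Cyp2c40 and Cyp2c69 had the lowest ratios among those with at least 100 reads, -1.56 (-1.85 to -1.26) and -1.47 (-1.92 to -1.02). Cyp3a41a was at -0.63 (-0.86 to -0.40) and Cyp3a44 at -0.38 (-0.61 to -0.15), and both have close paralogs. The exception was Rtn4, with 13.7 RPM in MHs, 21.9 RPM in SHs and a log2 ratio of 0.68 (0.47 to 0.89). Cyp17a1, with 56 reads in MHs against 188 in SHs, was at 0.42 with an interval of -0.01 to 0.89, which lay above 0 with the other scalings.

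Among 11 genes held down by insulin through FOXO1, as Igfbp1 is, 2 were higher in SHs by their interval and 1 lower. Pck1, the gluconeogenic enzyme gene, had 2527 RPM in MHs and 3397 RPM in SHs. Its log2 ratio was 0.43 (0.41 to 0.44), and Irs2 was the other gene with a higher level. Pck1 is also among the periportal markers given below, all of which were higher in SHs by their interval. G6pc was lower, at -0.20 (-0.23 to -0.17). Klf15 and Foxo3 had intervals that included 0, at 0.04 and -0.02. The median of this list was 0.08, beside 0.17 for Igfbp1.

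**Figure D5:**
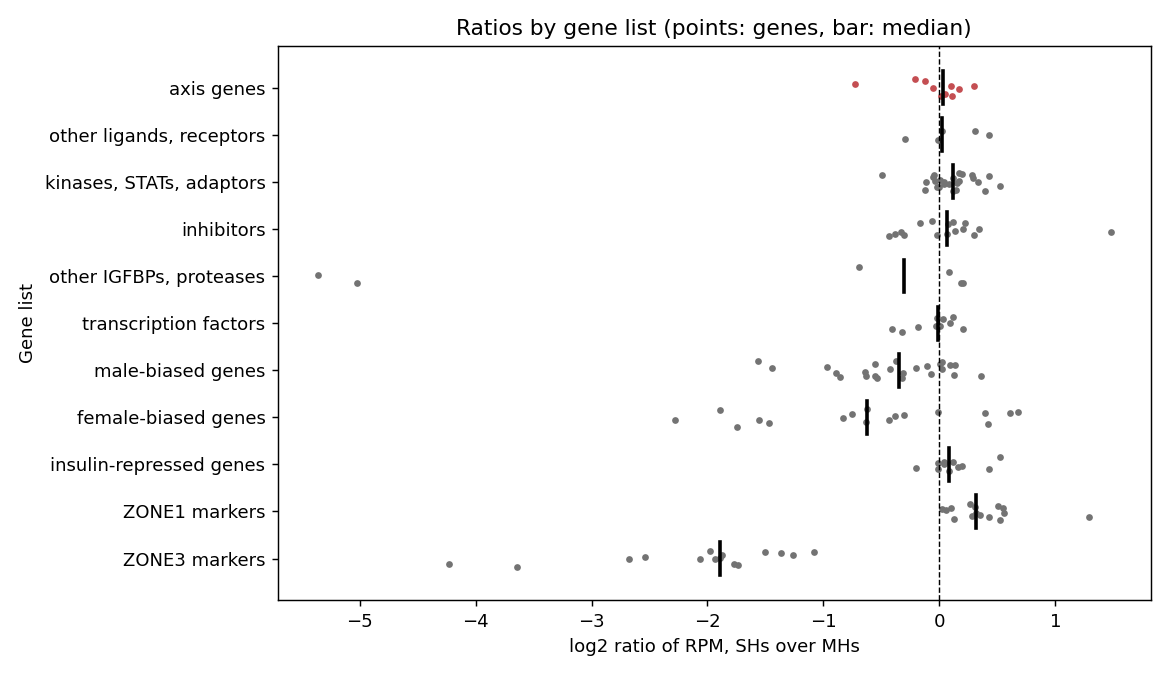
The log2 ratio of RPM, SHs over MHs, for genes with at least 10 reads in each list (points), with the median of the list as a bar. The 10 axis genes (red) centre near 0, the lists of male-biased and female-biased genes have medians of -0.35 and -0.62, and the zone 3 markers all lie under -1.

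The axis genes were also set beside markers of position in the liver lobule. All 15 pericentral (zone 3) markers, genes of hepatocytes around the central vein, were at least 2-fold lower in SHs, with a median of -1.89, and they include Cyp2e1 at -1.89 (-1.91 to -1.87) and Rgn at -1.26 (-1.31 to -1.21). All 15 periportal (zone 1) markers, genes of hepatocytes near the portal vein, were higher by their interval, with a median of 0.32, among them Cps1 at 0.02 (0.01 to 0.03) and Alb at 0.13 (0.12 to 0.13). The log2 ratios of the 10 axis genes ran from -0.73 to 0.30, so each of them lay above the highest pericentral marker, which was at -1.08. Most genes did so too. Of the 9608 genes with at least 200 reads, 0.812% were 2-fold lower in SHs, and their 5th percentile was -0.40. The lists were written with earlier results of these libraries known, and the share of cells of each zone in the preparations cannot be told apart from expression per cell.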

How the data were processed

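Poly(A) RNA of MHs and SHs was sequenced on an Ion Proton system, 1 library each. After quality trimming, the authors mapped reads to mm10 in CLC Genomics Workbench with up to 10 hits per read allowed, and expressed genes as RPKM. The deposited values are whole read counts per gene symbol, without normalization, and the counting program and annotation are not given in the sources used here. The labels give an age of 20 weeks, while the methods give younger mice for the study.

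Counts were scaled by library total to RPM in Python 3.11.15 (numpy 2.4.6, pandas 2.3.3, scipy 1.17.1), and ratios used 0.5 added reads. A level of 3 reads was 0.177 RPM in MHs and 0.0708 RPM in SHs. A gene was called by an interval wholly on one side of 0, and with the fold named. With 1 library per condition no test was run. No molecular identifiers are named, so reads are not independent molecules. Coordinates and exon lengths came from GENCODE M21 (mm10), which held 39374 of the 43280 symbols once. Scalings by edgeR 4.0.16 (TMM), by DESeq2 1.42.0 size factors and by other totals were alternatives. The formulas of the ratios and intervals were checked on counts simulated with Poisson error only. That is the error the intervals assume, so this check cannot show the spread between mice.

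The members and lists were chosen with earlier results of these data known. Named were the axis genes, and from each pathway list the 3 genes with the most reads and the 2 lowest and the 2 highest ratios, where 100 reads or more were counted. From marker lists, the 2 most read in MHs and those without reads in SHs were named, of which 2 genes are not reported here. Gh, Igf2, Igf1r, Igfbp3, Igfbp6, Bcl6, the remaining SOCS genes, Xist and the Y-linked genes, and the pairs Cish with Socs2, Igf1 with Igfals and Socs3 with Socs2, were chosen after their values were seen.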

Additional observations from a re-analysis of the deposited data

How the results depend on the processing

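No paired analysis was possible because each condition had only 1 library. The other scalings shifted every log2 ratio alike, by 0.01 (edgeR's TMM and DESeq2's size factors), 0.02 (protein-coding totals) or 0.03 (totals leaving out the 10 most read genes). With the last 2 of these scalings, the number of axis genes under 0 was 2, since the interval of Ghr then included 0. Among 25 kinase and adaptor genes, 1 was lower and 12 were higher with each other scaling, against 3 and 9 by library totals. At 1.5-fold, 1 axis gene was lower. Over genes with at least 1 read in both libraries together, the median of the ligand and receptor list was 0.27. This is the ratio of Ins1 and Insrr, which each had 0 reads in MHs and 1 in SHs. The median of the IGF-binding protein list was then 0.08. With at least 200 reads, the medians of these lists were -0.01 and 0.20, and that of the female-biased list -0.38, over fewer genes. The median of the transcription factor list, -0.01, was above 0 with every other scaling. Per 1000 exon bases, the Stat5b share was 84.3% in MHs and 86.3% in SHs, and the Igfbp1 share 23.0% and 28.0%. With the longest coding transcript as length, chosen after seeing the data, Socs2 ranked 9 and Jak2 10 in MHs, and Ghr ranked 2 and Igf1 3 in SHs. Depth limits Jak2, Stat5a and Socs2 most among the axis genes, and with 1 library per condition the spread between mice is unknown.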
